A study of Caenorhabditis elegans with 6 samples.

Results

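The genes described here encode small secreted peptides of the nematode epidermis: nlp-27, nlp-28, nlp-29, nlp-30 and nlp-31 of the nlp family, and cnc-2 and cnc-4 of the caenacin (cnc) family. They were taken by gene symbol from the array platform's annotation and make up 7 of the 17118 genes that carry a probe set of their own on the array. Each of the 7 had 1 such probe set, and 7 of 7 passed the filter on dim probe sets. The 7 were proposed with results of these same arrays known, across all 3 groups, so their levels and differences are given as a description with no test. Tests are given only for other peptide genes and for regulators, from lists set by gene function, also with earlier results of these arrays known.

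RNA abundance was measured in whole, unfed larvae of the first stage (L1) of Caenorhabditis elegans on 6 Affymetrix arrays, 2 per group. The first group was elo-5(gk208) mutants whose mothers received the branched fatty acid C13ISO, which the labels call C17ISO deficient (named C13ISO mutants here, elo-5 C13ISO in the plots). The second group was elo-5(gk208) mutants whose mothers received C17ISO (C17ISO mutants, elo-5 C17ISO in the plots), and the third was the wild-type strain N2 whose mothers received C13ISO. All groups had spent 1 earlier generation on OP50 bacteria with 1 mM C17ISO, and the mothers then received 1 mM of the stated fatty acid at 20 °C. Their eggs were freed with bleach and kept on plates without food, and larvae were collected after 24 h. The product of elo-5 lengthens branched fatty acids to C17ISO, and the study set larvae lacking C17ISO against the other groups. Both mutant groups carry the same allele, each array holds RNA of a plate population, and N2 given C17ISO was not analysed here. The comparison of C17ISO mutants with N2 C13ISO therefore changes genotype and supplement together. The elo-5 probe set itself read 181 ± 51.7 in C13ISO mutants and 162 ± 22.7 in C17ISO mutants, against 1389 ± 310 in N2 C13ISO (SD, n = 2 each).

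The epidermis of C. elegans lies under the cuticle and is the first living layer that a skin-penetrating fungus or a wound reaches. It answers by switching on peptide genes of the nlp and cnc families, whose products are rich in glycine and aromatic residues and are thought to act on microbes. The best studied is nlp-29, which infection by the fungus Drechmeria coniospora, injury and osmotic stress induce. For infection and injury the route is mainly the adaptor TIR-1, the p38 kinase PMK-1 and the factor STA-2. The caenacin gene cnc-2 instead answers to the TGF-beta ligand DBL-1 made by neurons. In L1 larvae the same genes are also expressed at a basal level without infection.

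On the chromosome the nlp genes sit side by side. In the WBcel235 gene table, used here only for names and order, nlp-31, nlp-30, nlp-29, nlp-28 and nlp-27 (loci B0213.6 to B0213.2) are consecutive protein-coding genes of chromosome V, between nlp-34 and K09D9.9. On the same chromosome cnc-4, cnc-3 and cnc-2 (loci R09B5.9, R09B5.8 and R09B5.3) are consecutive, between cnc-5 and srj-23. Of the 7 probe sets, 6 have names ending in x_at, the manufacturer's mark for probes that can also match other transcripts, and the probe set of cnc-4 does not. Signal shared among closely related genes can therefore not be told apart from their own, and the 5 nlp values are not 5 independent measurements. Intensities of different probe sets are on no common scale, so levels are compared only within a gene.

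In every one of the 7 genes both C13ISO mutant arrays read above both C17ISO mutant arrays, and these above both N2 arrays. Against N2 the genes were 1.94-fold (cnc-2) to 2.75-fold (nlp-29) higher in C13ISO mutants and 1.25-fold (cnc-4) to 1.90-fold (nlp-31) higher in C17ISO mutants. Between the mutant groups the difference ran from 1.17-fold (cnc-2) to 1.60-fold (cnc-4) higher in C13ISO mutants. An ordering of this kind without overlap, C13ISO mutants over C17ISO mutants over N2 C13ISO, was present at 6.84% of the 15783 probe sets tested. As the 7 were chosen across these same groups, nothing is read from their count.

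**Figure D1:**
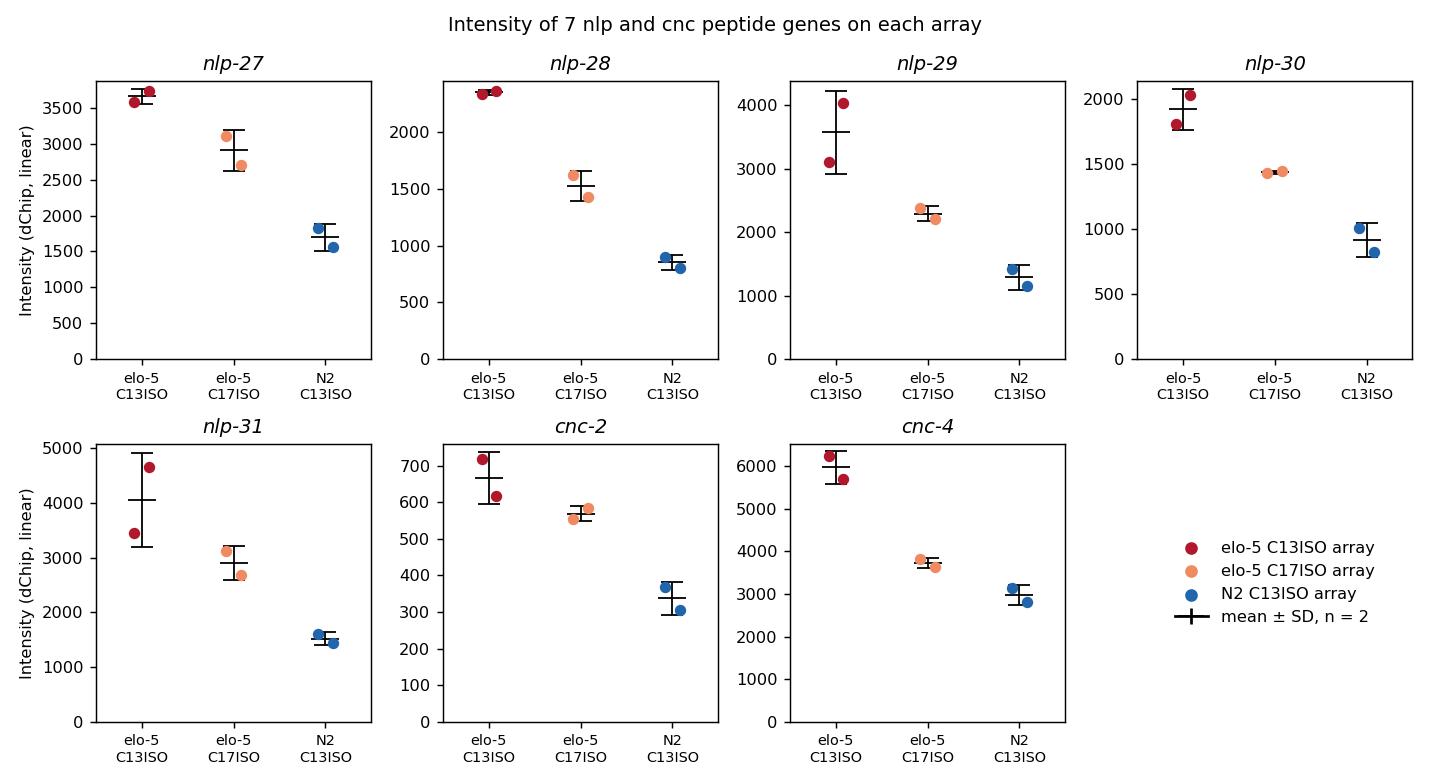
Intensity of each of the 7 peptide genes (vertical axis, linear dChip intensity from 0) on the 2 arrays of each group, the C13ISO mutants at the left, the C17ISO mutants in the middle and N2 at the right, with the mean and SD of each pair of arrays in black. In each panel the 3 groups step down from left to right without overlap. The C13ISO mutant arrays of nlp-31 lie far apart, at 3455 and 4661, and the mutant groups of cnc-2 lie close together.

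The gene nlp-29 (probe set 172375_x_at), the standard readout of the epidermal response, read 3110 and 4031 on the C13ISO mutant arrays, 2371 and 2204 on the C17ISO mutant arrays, and 1426 and 1143 on the N2 arrays. The lowest mutant array was well above the higher N2 array. On the log2(intensity + 16) scale nlp-29 was 1.46 higher in C13ISO mutants than in N2 (standard error, SE, 0.15) and 0.83 higher in C17ISO mutants than in N2. Between the mutant groups it was 0.63 higher in C13ISO mutants.

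Its near neighbour nlp-31 (172343_x_at), which encodes a related peptide with reported antifungal activity, read 3455 and 4661 in C13ISO mutants, 3123 and 2683 in C17ISO mutants, and 1602 and 1439 in N2. The lower C13ISO mutant array stood only a little above the higher C17ISO mutant array. The log2 difference was 1.39 for C13ISO mutants and 0.92 for C17ISO mutants against N2 (SE 0.15 each), and 0.47 between C13ISO mutants and C17ISO mutants. Of the 7 genes nlp-31 had the largest difference between C17ISO mutants and N2.

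The gene nlp-28 (172427_x_at) read 2338 and 2367 in C13ISO mutants, 1622 and 1430 in C17ISO mutants, and 898 and 806 in N2. Its C13ISO mutant arrays were nearly equal, and the 3 groups were widely separated. The log2 difference from N2 was 1.45 in C13ISO mutants and 0.83 in C17ISO mutants (SE 0.12 each), and C13ISO mutants were 0.62 above C17ISO mutants.

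The gene nlp-27 (172388_x_at), at the other end of the cluster, read 3590.2 and 3734 in C13ISO mutants, 3114 and 2711 in C17ISO mutants, and 1829 and 1564 in N2. Both mutant groups lay far above N2 and nearer to each other. The log2 difference from N2 was 1.11 in C13ISO mutants and 0.77 in C17ISO mutants (SE 0.11 each), and 0.33 separated the mutant groups. The gene nlp-30 (172386_x_at), which lies between nlp-29 and nlp-31, read 1811 and 2029.7 in C13ISO mutants, 1429 and 1447 in C17ISO mutants, and 1008 and 825 in N2. Its order was the same, with log2 differences from N2 of 1.06 in C13ISO mutants and 0.65 in C17ISO mutants (SE 0.13 each), and of 0.41 between the mutant groups.

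The caenacin gene cnc-2 (172437_x_at), the readout of DBL-1 signalling in the epidermis, read 717 and 617 in C13ISO mutants, 554 and 583 in C17ISO mutants, and 369 and 305 in N2. The mutant groups barely separated, since the gap between them was smaller than the gap between the 2 C13ISO mutant arrays. Its log2 difference was 0.95 for C13ISO mutants and 0.73 for C17ISO mutants against N2, but 0.22 between C13ISO mutants and C17ISO mutants (SE 0.16 each). With array medians aligned this last value was -0.01, so it has no settled direction.

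The other caenacin gene, cnc-4 (184191_at), read 6240.45 and 5706 in C13ISO mutants, 3813 and 3645 in C17ISO mutants, and 3148 and 2813 in N2. Here the C17ISO mutant arrays lay close to N2 and the C13ISO mutant arrays stood apart. The log2 difference from N2 was 1.00 in C13ISO mutants and 0.32 in C17ISO mutants, and 0.68 separated the mutant groups (SE 0.09 each). In cnc-4 the difference between the mutant groups was therefore larger than that between C17ISO mutants and N2. In the other 6 genes it was smaller, and the same split of 6 genes and cnc-4 was found in each of the alternative analyses. These steps share the C17ISO mutant arrays, and their difference was not tested.

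**Figure D2:**
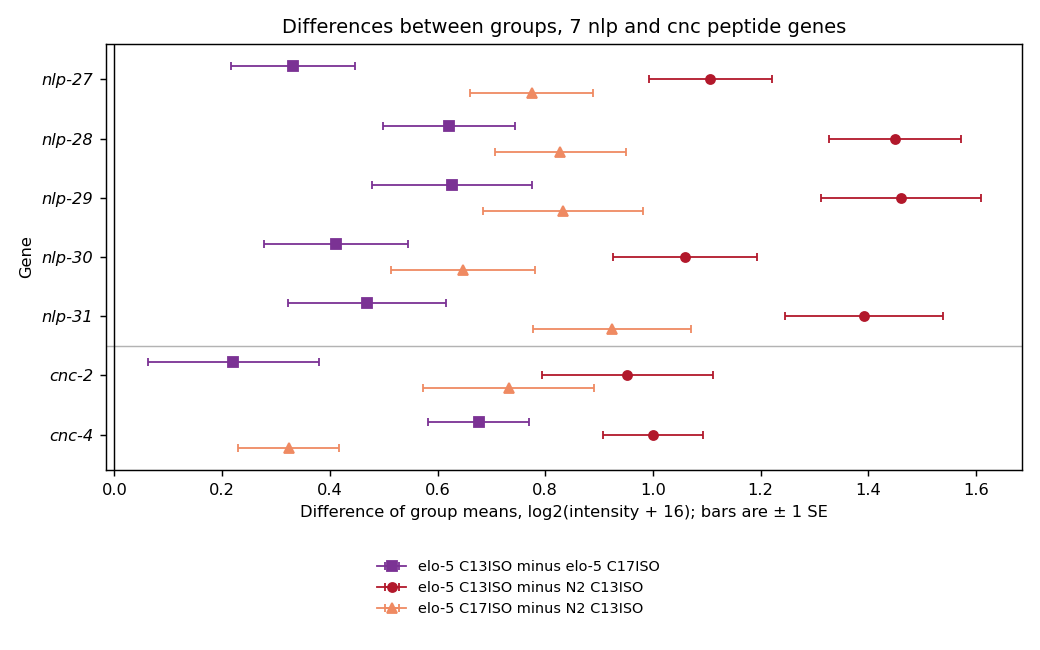
Differences between groups in log2(intensity + 16) (horizontal axis) for the 7 peptide genes (vertical axis), with bars of 1 SE from the fit over all probe sets. Squares compare the mutant groups, circles set C13ISO mutants against N2, and triangles set C17ISO mutants against N2. The triangle lies to the right of the square in each gene except cnc-4.

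Over the 7 genes the median log2 difference was 0.47 for C13ISO mutants minus C17ISO mutants, 1.11 for C13ISO mutants minus N2 and 0.77 for C17ISO mutants minus N2. The medians over the 15783 probe sets tested were 0.07, 0.02 and -0.04 in the same comparisons. Every C13ISO mutant array was above every C17ISO mutant array at 7 of 7 genes and at 40.1% of all probe sets, and above every N2 array at 7 of 7 genes and at 37.8%. Every C17ISO mutant array was above every N2 array at 7 of 7 genes and at 20.4% of all probe sets. A difference of at least 1.5-fold was present at 3 of 7 genes between C13ISO mutants and C17ISO mutants, against 21.6% of all probe sets. With array medians aligned it was present at 0 of 7, and nlp-27 was then 0.10 higher on the log2 scale in C13ISO mutants than in C17ISO mutants. With 1 array left out in turn it was present at 1 gene (without C17ISO mutant replicate 2) to 4 genes, and at 2 without C13ISO mutant replicate 2. Against N2 a difference of this size was present at 7 of 7 genes in C13ISO mutants (19.6% of all probe sets) and at 6 of 7 in C17ISO mutants (2.42%), cnc-4 being the exception, and with array medians aligned at 7 and 6. The 3 comparisons share groups, and all of these counts describe genes chosen on the same arrays.

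The 7 genes were also compared by the shape of their values over the 6 arrays. Likeness was measured as the root mean square difference of the log2 values after each gene's mean was removed, which is 0 for equal profiles. The closest of the 21 pairs was nlp-29 and nlp-31 at 0.0881, followed by nlp-27 and nlp-30 at 0.0886. The least alike were cnc-4 and nlp-31 at 0.30. Among 14933 probe sets of other single genes, the ones nearest to nlp-29 were the cytochrome P450 genes cyp-34A5 and cyp-13A6 (0.0746 and 0.0750) and the hexokinase gene hxk-1 (0.10). For nlp-31 they were best-24 (0.11), nhr-12 (0.12) and C34F11.8 (0.13), and for nlp-28 they were Y37A1A.2 (0.06), best-24 (0.09) and C34F11.8 (0.10). Nearest to nlp-27 were nhr-202 (0.06), nhr-65 and gpa-14 (0.09 each), and nearest to nlp-30 were nhr-201, gpa-14 and F31D4.8 (0.10 each). The closest to cnc-2 were H02F09.3 (0.09), C35C5.8 (0.10) and F23A7.1 (0.11), and to cnc-4 F15D4.5, srsx-34 and idpp-14 (0.06 each). All of these profiles share the same 6 arrays in 3 groups, and likeness was not tested.

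Other members of the families did not move as a block. Of 15 further nlp and cnc peptide genes listed, 11 had a probe set of their own and 9 passed the filter on dim probe sets. Of the 9, cnc-1 passed the filter only through the C13ISO mutants, where it was high, and is left out of these counts. In C13ISO mutants 3 of the other 8 rose and 2 fell against N2, and 3 rose and 3 fell against C17ISO mutants (limma, Benjamini-Hochberg adjusted over all probe sets, threshold 0.05). Over all probe sets 43.6% were called against N2 (23.2% higher, 20.4% lower) and 44.5% against C17ISO mutants (25.7% higher, 18.8% lower). In C17ISO mutants minus N2 limma called none of the 8 at an adjusted p under 0.05 (3 had an unadjusted p under 0.05), where 1.41% of all probe sets were called in either direction. The median log2 differences of the 8 were 0.12 for C13ISO mutants minus N2, 0.08 for C13ISO mutants minus C17ISO mutants and 0.33 for C17ISO mutants minus N2.

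The strongest rise among them was in cnc-6, which averaged 894 ± 38.5 in C13ISO mutants, 162 ± 78.6 in C17ISO mutants and 109 ± 22.8 in N2. Against N2 its rise was 7.34-fold (limma adjusted p = 1.8e-05), and against C17ISO mutants it was 5.38-fold (adjusted p = 6.1e-05). The gene nlp-26 averaged 682 ± 157 in C13ISO mutants, 188 ± 11.6 in C17ISO mutants and 143 ± 29 in N2. It rose 4.37-fold against N2 (limma adjusted p = 1.9e-05), or 3.39-fold when set against C17ISO mutants (adjusted p = 7.4e-05). In both genes C17ISO mutants lay close to N2, at a log2 difference of 0.45 (SE 0.27) for cnc-6 and 0.37 (SE 0.20) for nlp-26.

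The gene cnc-1 averaged 121 ± 24.8 in C13ISO mutants, 19.4 ± 6.07 in C17ISO mutants and 21.8 ± 8.96 in N2. It passed the filter only through the C13ISO mutants, where it was high, so its difference is given as values without a test. The counts and medians of the other 8 genes leave cnc-1 out. The gene nlp-32 averaged 240 ± 4.41 in C13ISO mutants, 122 ± 3.58 in C17ISO mutants and 73 ± 38.2 in N2, and rose 3.02-fold against N2 (adjusted p = 6.8e-04). Its rise of 1.85-fold against C17ISO mutants (adjusted p = 0.019) was lost without any 1 of the 4 mutant arrays (adjusted p = 0.053 to 0.0866).

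The caenacin gene cnc-3 went the other way. It lies between cnc-4 and cnc-2 on the chromosome. It read 731 and 818 in C13ISO mutants, 3627 and 3398 in C17ISO mutants, and 2605 and 2629 in N2. It fell 3.34-fold against N2 (log2 -1.74, SE 0.11, limma adjusted p = 1.2e-06) and 4.47-fold against C17ISO mutants (adjusted p = 3.2e-07). Its probe set, 172405_x_at, carries the same mark for shared probes as that of cnc-2. Of the flanking genes, srj-23 was at about 30 in every group (31.1 ± 8.66 in C13ISO mutants, 33.7 ± 8.98 in C17ISO mutants and 32.45 ± 4.27 in N2) and cnc-5 was dim throughout. Beside the nlp genes, K09D9.9 averaged 20.4 ± 7.35, 25.45 ± 0.7 and 8.325 ± 4.67 in the same order of groups, and nlp-34 was not analysed here.

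Among the remaining genes of the families, nlp-25 averaged 1350 ± 392 in C13ISO mutants, 2261 ± 179 in C17ISO mutants and 2108 ± 10.4 in N2. It fell 1.59-fold against N2 (limma adjusted p = 0.01; 0.0542 without N2 replicate 2) and 1.70-fold against C17ISO mutants (adjusted p = 0.0048). The gene nlp-33 averaged 4353 ± 444, 5348 ± 334 and 5100 ± 259 in the same order, a fall of 1.23-fold against C17ISO mutants (limma adjusted p = 0.028). That call was lost without C13ISO mutant replicate 2 (0.143) or C17ISO mutant replicate 1 (0.146), and without an intensity trend in the variance (0.132). Against N2 nlp-33 was not called (log2 -0.23, limma adjusted p = 0.076). It was called lower there with array medians aligned (0.00266), with the replicate block (0.0315) and without C13ISO mutant replicate 1. For nlp-24 the log2 difference from N2 was 0.12 in C13ISO mutants (SE 0.18), and for cnc-8 it was 0.12 (SE 0.12), and neither was called. The dim genes cnc-5 (22.4 ± 5.8 in C13ISO mutants, 6.47 ± 1.37 in C17ISO mutants and 8.615 ± 3.32 in N2) and cnc-7 (32.2 ± 6.265, 5.99 ± 1.09 and 4.205 ± 0.0495) did not pass the filter, nor did a second probe set of cnc-7 (13.7 ± 4.23, 4.845 ± 2.88 and 4.815 ± 0.389).

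A separate family of peptides, the defensin-like abf genes, was measured at 5 genes, of which 2 rose and 0 fell in C13ISO mutants against either other group. That is 40% of the 5 in each comparison, near the 43.6% of all probe sets called against N2 and 44.5% against C17ISO mutants. The gene abf-5 averaged 1152 ± 317 in C13ISO mutants, 449 ± 75.9 in C17ISO mutants and 320 ± 14.6 in N2, a rise of 3.41-fold against N2 (limma adjusted p = 6.4e-05). The gene abf-3 averaged 181 ± 50.2, 85.1 ± 6.04 and 54.6 ± 0.63 in the same order, a rise of 2.74-fold against N2 (limma adjusted p = 2.8e-04). The dim genes abf-1, abf-2 and abf-4 had log2 differences of 0.51, 0.53 and 0.42 between C13ISO mutants and N2 (SE 0.20, 0.22 and 0.23) and were not called, and abf-4 passed the filter only through the C13ISO mutants. In C17ISO mutants minus N2 abf-2 stood at 0.83 (SE 0.22, limma adjusted p = 0.11).

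**Figure D3:**
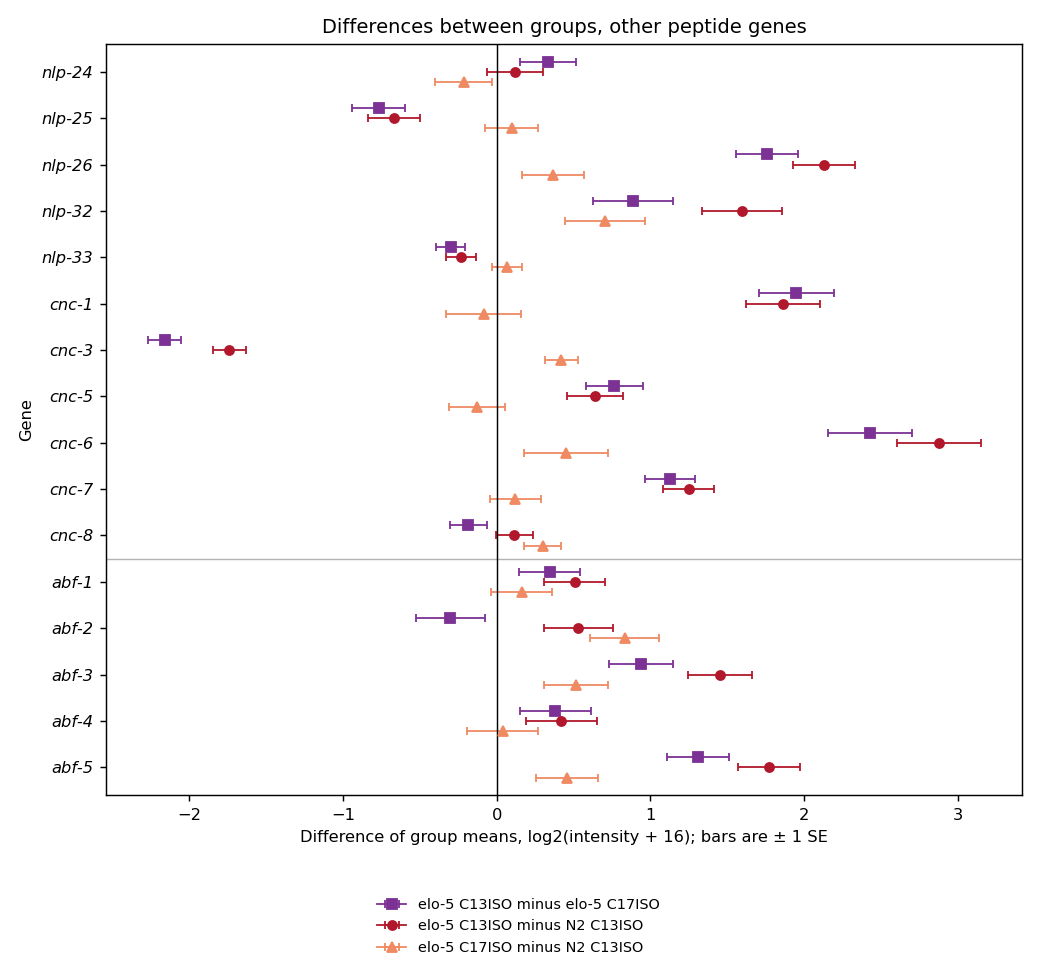
Differences between groups in log2(intensity + 16) (horizontal axis, bars of 1 SE) for 11 further nlp and cnc genes above the line and 5 abf genes below it. Squares compare C13ISO mutants with C17ISO mutants, circles C13ISO mutants with N2, and triangles C17ISO mutants with N2. The gene cnc-3 lies far to the left of 0 in both comparisons with C13ISO mutants, and cnc-6, nlp-26 and cnc-1 far to the right.

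Genes that act upstream of nlp-29 in the epidermis, in the p38 kinase pathway, were read from a list of 18. Of these, 17 were on the array and 15 passed the filter. In C13ISO mutants 3 of the 15 rose, 1 fell and 11 were not called against N2, and 6 rose, 1 fell and 8 were not called against C17ISO mutants. That is 26.7% of the list called against N2, where 43.6% of all probe sets were, and 46.7% against C17ISO mutants, where 44.5% were. In C17ISO mutants minus N2 none of the 15 was called by limma (5 had an unadjusted p under 0.05), where 1.41% of all probe sets were called, and the list's median log2 difference was -0.08. The MAP kinase kinase gene sek-1, which activates PMK-1, averaged 1384 ± 190 in C13ISO mutants, 499.5 ± 88.8 in C17ISO mutants and 684.5 ± 105 in N2. It rose 2-fold against N2 (limma adjusted p = 0.0011) and 2.72-fold against C17ISO mutants (adjusted p = 1.1e-04). Its level in C17ISO mutants was below that in N2 (log2 -0.45, SE 0.18), a difference that was not called (limma adjusted p = 0.25). The part of the genes of this list in the peptide values was not tested. The third gene that rose against N2 was vhp-1, a phosphatase gene named after its values were seen (1.45-fold, limma adjusted p = 0.0016). The rise of snf-12 against C17ISO mutants (1.44-fold, limma adjusted p = 0.027) was lost with quantile normalization (0.0789) and array medians aligned (0.156). It was also lost without C13ISO mutant replicate 1 or either C17ISO mutant array.

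The pseudokinase gene nipi-3, needed for nlp-29 induction by infection, averaged 4401 ± 462 in C13ISO mutants, 3273 ± 368 in C17ISO mutants and 2680 ± 7.79 in N2. Against N2 it rose 1.63-fold (limma adjusted p = 5.0e-04). Its 1.34-fold rise against C17ISO mutants (adjusted p = 0.01) was lost with array medians aligned (0.177), without an intensity trend (0.0526), without C13ISO mutant replicate 2 (0.0618) and without C17ISO mutant replicate 2 (0.0787). The protein kinase C gene tpa-1 rose 1.71-fold against C17ISO mutants (adjusted p = 0.0061; 0.0541 without C17ISO mutant replicate 1), while against N2 its log2 difference was 0.20 (SE 0.18). The gene hpd-1, which acts in tyrosine breakdown, a pathway whose by-product HPLA the receptor DCAR-1 senses, fell 1.53-fold against C17ISO mutants (limma adjusted p = 8.3e-04), and its fall against N2 was 1.28-fold (adjusted p = 0.019). The fall of hpd-1 against N2 was lost without C13ISO mutant replicate 1 (0.0606), N2 replicate 1 (0.16) or N2 replicate 2 (0.0511), and without an intensity trend (0.0802).

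The core adaptor gene tir-1 averaged 1987 ± 367 in C13ISO mutants, 2221 ± 166 in C17ISO mutants and 1585 ± 272 in N2, and was called in none of the comparisons. Against N2 it was called higher in 3 alternatives: without C13ISO mutant replicate 1 (limma adjusted p = 0.0304), over the mean of its probe sets (0.017) and with quantile normalization (0.043). The p38 kinase gene pmk-1 averaged 781 ± 77.8, 563 ± 74.6 and 593 ± 9.86 in the same order. It rose 1.38-fold against C17ISO mutants (limma adjusted p = 0.032), a call lost with array medians aligned, where the log2 difference was 0.23 against 0.46 (adjusted p = 0.225), and with the 2 groups fitted alone (0.0599). It was also lost without C13ISO mutant replicate 1 (0.113), C17ISO mutant replicate 2 (0.189) or either N2 array (0.0602 and 0.0603). Against N2 pmk-1 was not called (limma adjusted p = 0.065), with values of 0.0401 to 0.0493 in the 3 alternatives that called it. The STAT-like factor gene sta-2 was dim at 32.55 ± 5.25 in C13ISO mutants, 24 ± 3.17 in C17ISO mutants and 21.1 ± 11 in N2, and did not pass the filter.

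The TGF-beta pathway upstream of cnc-2 was read from a list of 13 genes. Of these, 11 were on the array and 11 were tested. In C13ISO mutants 1 rose and 0 fell against N2, and 3 rose and 0 fell against C17ISO mutants. That is 9.09% and 27.3% of the list called, where 43.6% and 44.5% of all probe sets were. The ligand gene dbl-1 averaged 324 ± 12.6 in C13ISO mutants, 286 ± 7.55 in C17ISO mutants and 269 ± 17.3 in N2, with a log2 difference from N2 of 0.25 (SE 0.15) that was not called. The receptor-regulated Smad gene sma-3 averaged 489 ± 7.87, 612 ± 0.76 and 584 ± 15.1 in the same order and was not called either. With array medians aligned it was called lower against N2 and against C17ISO mutants (limma adjusted p = 0.038 and 0.00961). The co-Smad gene sma-4 rose 1.83-fold in C13ISO mutants against C17ISO mutants (limma adjusted p = 5.5e-04). It was also the gene of the list that fell in C17ISO mutants against N2 (1.58-fold, limma adjusted p = 0.05 after rounding), where 0.767% of all probe sets were called higher and 0.64% lower. That call was lost without any 1 of the C17ISO mutant and N2 arrays (0.174 to 0.356), with the replicate block (0.064) and in 6 further alternatives (0.0508 to 0.0915). The Smad gene sma-2 and the glypican gene lon-2, an inhibitor of DBL-1, rose by 0.66 and 0.63 on the log2 scale against C17ISO mutants (limma adjusted p = 0.016 and 0.027). Both calls were lost with array medians aligned, where the log2 differences were 0.43 and 0.40 (limma adjusted p = 0.0733 and 0.104), without C13ISO mutant replicate 1 (0.0702 and 0.148) and without C17ISO mutant replicate 2 (0.14 and 0.182). The gene called higher against N2 was drag-1, which averaged 44.5 ± 6.97 in C13ISO mutants, 31.3 ± 1.98 in C17ISO mutants and 25.3 ± 4.11 in N2. It passed the filter only through the C13ISO mutants, and without it limma called 0 of the other 10 genes against N2 (2 had an unadjusted p under 0.05). Its own call (adjusted p = 0.048) was lost with the replicate block (0.052), other offsets (0.0515 and 0.0527), no filter (0.0555), quantile normalization (0.0976), aligned medians (0.157) and the 2 groups fitted alone (0.0601). It was also lost without any 1 array other than C13ISO mutant replicate 1 (0.0621 to 0.242).

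The furrow collagens, cuticle proteins whose loss is known to switch nlp-29 on, fell together. All 5 that were on the array fell in C13ISO mutants against N2 and against C17ISO mutants, with list medians of -2.81 and -3.21. The gene dpy-9 averaged 132.5 ± 8.76 in C13ISO mutants, 2603 ± 10.2 in C17ISO mutants and 2016 ± 129 in N2, a fall of 13.7-fold against N2 (limma adjusted p = 4.6e-08). The genes dpy-8, dpy-3 and dpy-7 fell 14.4-fold, 7-fold and 5.49-fold against N2. Of all probe sets 20.4% were called lower against N2 and 18.8% against C17ISO mutants. In C17ISO mutants minus N2 the median of the 5 was 0.37 and limma called none of them (3 had an unadjusted p under 0.05), where 1.41% of all probe sets were called. The part of the collagens in the peptide values was not tested.

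Osmotic stress is another trigger of nlp-29, and the mucin-like gene osm-8 is known to hold both nlp-29 and the osmotic response in check. The osm-8 probe set read 91.9 ± 16.7 in C13ISO mutants, 978 ± 10.7 in C17ISO mutants and 715 ± 3.47 in N2. It fell 6.82-fold against N2 (limma adjusted p = 6.1e-07) and 9.27-fold against C17ISO mutants (adjusted p = 2.8e-07). The standard osmotic readouts were too dim to test. The glycerol synthesis gene gpdh-1 was at 19.1 ± 3.39 in C13ISO mutants, 28.45 ± 5.11 in C17ISO mutants and 18.7 ± 0.79 in N2, and hmit-1.1, a myo-inositol transporter gene, was at 23.2 ± 9.32, 12 ± 0.438 and 15.1 ± 1.55 in the same order, and neither passed the filter. The related gene gpdh-2 fell 1.78-fold against N2 (limma adjusted p = 9.0e-04). Of the 7 genes of this list that were tested, 2 rose and 3 fell against N2, and 1 rose and 2 fell against C17ISO mutants. That is 71.4% and 42.9% of the 7 called, where 43.6% and 44.5% of all probe sets were. The rise against C17ISO mutants was in wdr-23 (limma adjusted p = 0.029). It was lost with array medians aligned (0.318), without an intensity trend (0.0689), and without C13ISO mutant replicate 2 or either C17ISO mutant array. The fall of ptr-23 against N2 (log2 -0.42) was a call lost without either N2 array, at log2 -0.40 and -0.44. The 2 that rose against N2, wnk-1 (log2 0.59) and wdr-23 (log2 0.45), each lost the call with array medians aligned (limma adjusted p = 0.0604 and 0.0946), without C13ISO mutant replicate 2 (0.0945 and 0.0904) and without N2 replicate 2 (0.0953 and 0.161). The call of wnk-1 was also lost without N2 replicate 1 (0.0679) and over the mean of its probe sets (0.0537).

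**Figure D4:**
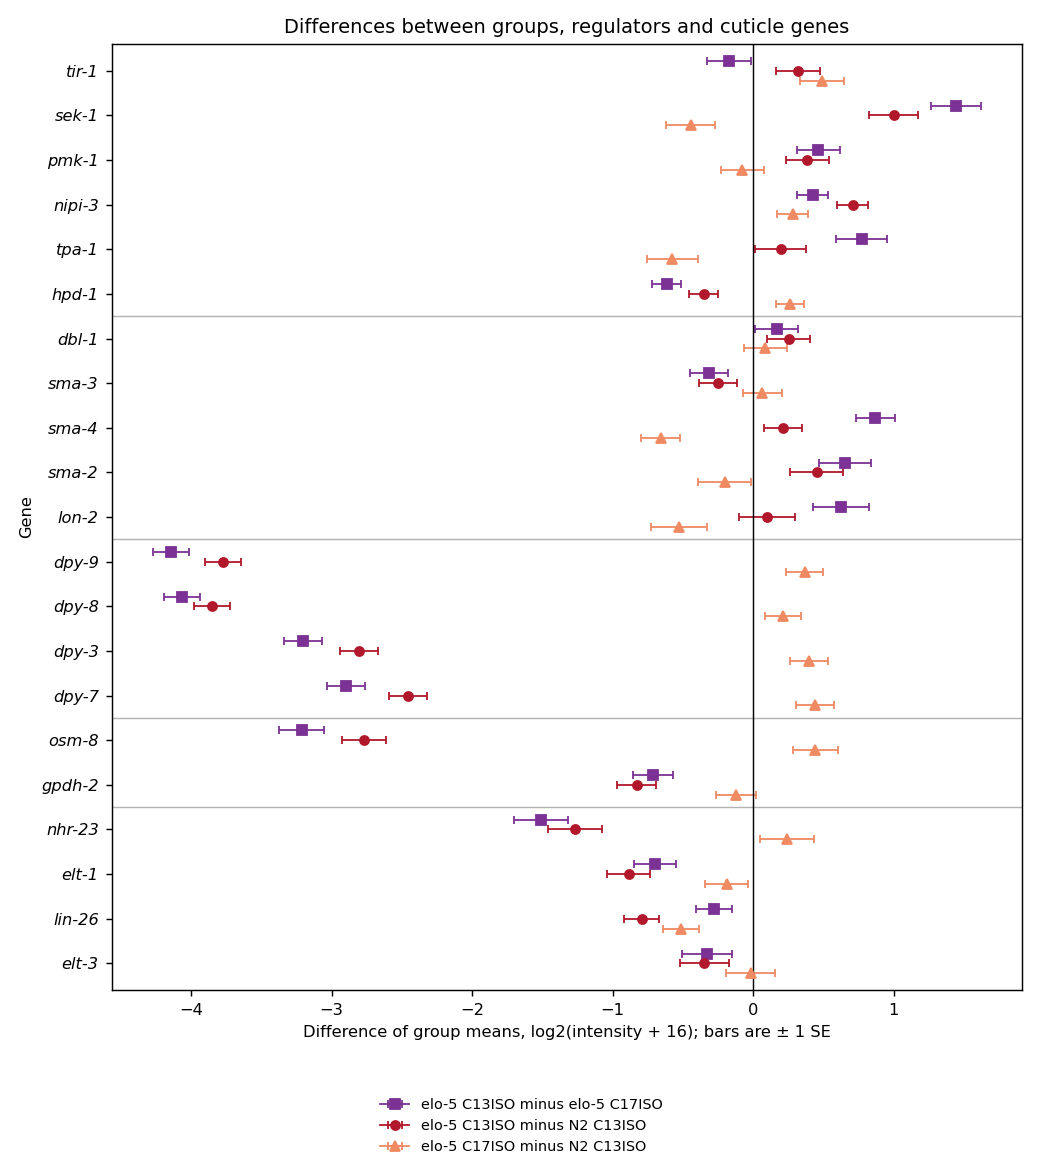
Differences between groups in log2(intensity + 16) (horizontal axis, bars of 1 SE) for named regulators, in blocks from top to bottom: the p38 pathway, the TGF-beta pathway, furrow collagens, osmotic stress genes and epidermal transcription factors. Squares compare C13ISO mutants with C17ISO mutants, circles C13ISO mutants with N2, and triangles C17ISO mutants with N2. The furrow collagens and osm-8 lie far to the left of 0 in both comparisons with C13ISO mutants and to the right of 0 in the remaining one.

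Transcription factors of the epidermis were read from a list of 8. In C13ISO mutants 0 rose and 5 fell against N2, where 20.4% of all probe sets were called lower, and 0 rose and 4 fell against C17ISO mutants, where 18.8% were. In C17ISO mutants minus N2 limma called none of the 8 (2 had an unadjusted p under 0.05), where 1.41% of all probe sets were called. The part of these factors in the peptide values was not tested. The moulting regulator gene nhr-23 fell 2.40-fold against N2 (limma adjusted p = 4.3e-04), the GATA factor gene elt-1 1.85-fold (adjusted p = 8.9e-04) and the epidermal fate gene lin-26 1.73-fold (adjusted p = 5.8e-04). The receptor gene nhr-25 fell 1.51-fold (adjusted p = 0.037), a call lost without any 1 of the C13ISO mutant and N2 arrays (0.0584 to 0.159), with no filter (0.0619) and without an intensity trend (0.0726). The factor gene ceh-16 fell 1.29-fold against N2 and 1.31-fold against C17ISO mutants (limma adjusted p = 0.042 and 0.034). Both calls were lost with the 2 groups fitted alone (0.0562 and 0.077) and without any 1 array. Its call against N2 was also lost with quantile normalization (0.0583) and the replicate block (0.0549). In C17ISO mutants minus N2 the log2 difference was 0.24 for nhr-23, -0.19 for elt-1, -0.51 for lin-26 and -0.44 for nhr-25. In C13ISO mutants minus C17ISO mutants it was -1.51, -0.70, -0.28 and -0.15 in the same order. There lin-26 and nhr-25 were not called (limma adjusted p = 0.099 and 0.58), though some alternatives called each of them lower. The hypodermal GATA factor gene elt-3 averaged 1164 ± 90.7 in C13ISO mutants, 1493 ± 416 in C17ISO mutants and 1483 ± 79.6 in N2. It was not called. Some alternatives called it lower against N2, among them the mean of its probe sets (limma adjusted p = 0.0072) and aligned array medians (0.0295).

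Markers of cell types were read beside these results, from 5 short lists. Of 10 epidermis markers 0 rose, 6 fell and 4 were not called in C13ISO mutants against N2. Against C17ISO mutants 0 rose, 4 fell and 6 were not called. The summed intensity of the 10 was 11860 to 13320 in C13ISO mutants, 21050 to 23400 in C17ISO mutants and 21740 to 23550 in N2. Such a sum mostly follows the bright probe sets. On the log2 scale the largest falls against N2 were in wrt-2 (-3.10, from 4103 in N2 to 472 in C13ISO mutants) and wrt-10 (-3.03, from 2554 to 302). Next were che-14 (-2.50, from 770 to 123) and lrp-1 (-1.29, from 3644 to 1492). Not called against N2 were elt-3, ajm-1, let-805 (2932 in C13ISO mutants and 3117 in N2) and vab-10 (3191 and 2660). The genes lin-26, elt-3 and nhr-25 are also on the list of transcription factors. Of 18 oocyte and early embryo markers 17 passed the filter, and 17 of them rose in C13ISO mutants against N2. Of these rme-2 and chs-1 passed only through the C13ISO mutants, and all of the other 15 rose. Against C17ISO mutants 14 of these 15 rose and 0 fell. The summed intensity of the 18 was 9797 to 14930 in C13ISO mutants, 2465 to 3345 in C17ISO mutants and 3106 to 3764 in N2. No value was at 0, and means were under 16 only for rme-2 and chs-1, both in C17ISO mutants. In C17ISO mutants against N2 none of the 10 epidermis markers and none of the 17 oocyte and early embryo markers was called by limma (2 and 3 had an unadjusted p under 0.05), where 1.41% of all probe sets were called. Of 8 intestine markers 1 rose and 3 fell in C13ISO mutants against N2. Of 8 muscle markers 3 rose and 3 fell, and of 7 tested neuron markers 2 rose and 0 fell in the same comparison. Against C17ISO mutants 3 intestine markers rose and 3 fell, 2 muscle markers rose and 2 fell, and 1 neuron marker rose and 0 fell. Set beside each of the 5 lists, 43.6% of all probe sets were called in C13ISO mutants against N2 (23.2% higher, 20.4% lower). Against C17ISO mutants 44.5% were (25.7% higher, 18.8% lower). The part of the marker shifts in the peptide values was not tested. In RNA from whole larvae, fewer cells of a type and less RNA per cell cannot be told apart.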

How the data were processed

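Per the labels, the authors obtained each deposited intensity, a linear value, with dChip. Not given in the sources used here are the version, whether mismatch probes entered and how arrays were scaled to each other. Values ran from 0.73 to 28838, with array medians of 107 to 134, and the number of arrays limits the precision. The table held 22548 probe sets. The platform annotation gave 20766 of them 1 gene, 887 several and 895 none, and 20738 of the one-gene probe sets were found by Entrez ID or locus in the WBcel235 table. A gene stands for its brightest one-gene probe set.

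Values were taken as log2(intensity + 16), and the 15783 probe sets above the 30th percentile of the mean were fitted with limma (lmFit, eBayes with trend) on all 6 arrays, with 3 residual degrees of freedom (6.94 prior). Two-sided p-values had Benjamini-Hochberg adjustment over all tested probe sets and a threshold of 0.05. Fold changes are on this log2 scale, which understates dim genes, while means and SDs are of the deposited intensities. The labels number the replicates, and the design text calls them biological. Members and lists were chosen with earlier results of these data known. Named genes were the 7 members, the other nlp, cnc and abf genes, neighbours, the 3 nearest profiles per member, up to 4 called genes per list by size, and a few best known ones that were not called. Among these best known genes pmk-1 was called in 1 comparison and osm-8 in both comparisons of C13ISO mutants, and both genes were kept. The genes ceh-16, ptr-23, vhp-1 and snf-12 and single cell type markers were named after their values were seen. Genes below the filter were named with values from the fit without it. Alternatives were other offsets, filters, normalizations and variance models, a fit to the 2 groups compared alone, a replicate block, the mean of a gene's probe sets and each array left out. R 4.3.3, limma 3.58.1, Python 3.11.15, pandas 2.3.3 and matplotlib 3.10.9 were used, and the fit was tested on simulated data.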

Additional observations from a re-analysis of the deposited data

How the results depend on the processing

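The median log2 difference of the 7 peptide genes was positive in each comparison under every alternative run. With array medians aligned it was 0.24 between C13ISO mutants and C17ISO mutants, against 0.47 as reported, and the difference of cnc-2 in that comparison turned to -0.0094. That alignment also gave a median of all probe sets of -0.16 there, against 0.07, and a share of higher among called probe sets of 36.2%, against 57.8%. For C13ISO mutants minus N2 the share was 38.4%, against 53.2%, and for C17ISO mutants minus N2 it was 69.6%, against 54.5%. With each array left out in turn the members' median was 0.33 to 0.61 for C13ISO mutants minus C17ISO mutants, 1.00 to 1.22 for C13ISO mutants minus N2 and 0.66 to 0.89 for C17ISO mutants minus N2. The number of probe sets called in C17ISO mutants minus N2 was 222 as reported, 103 with no filter, 84 without an intensity trend, 530 with only the arrays compared, and 27 to 506 with an array left out. Of the listed peptide and regulator genes 1 was called there, 0 with an offset of 1 or 64, no filter, quantile normalization, aligned medians, no trend or the replicate block, 4 with only the arrays compared, and 0 to 3 with an array left out. With C13ISO mutants set against C17ISO mutants and against N2, 31 and 28 of the listed genes were called. Of these, 20 in each comparison kept the call in every alternative that tested them. The 31 and the 28 include cnc-1, and the 28 also drag-1, which both passed the filter only through the C13ISO mutants. A filter at the 50th percentile left some listed genes untested, and 29 and 25 were called with it. Same-numbered arrays did not deviate together (correlations 0.001 to 0.082), and with the replicate block 7175, 6968 and 242 probe sets were called, against 7026, 6875 and 222. With an array left out, the remaining array of its group is assumed to vary like the other groups. The block left the members' medians at 0.47, 1.11 and 0.77. The cause of these shifts was not tested.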
